A study of Mus musculus with 18 samples.

Results

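Transcripts of immunoglobulin constant region genes were measured by RNAseq in dorsal spinal tissue, segments L3–5, from mice labelled C57BL/6 (C57BL/6N in the study's methods) and aged 3 months. The genes were the heavy chain genes Ighm, Igha, Ighg3, Ighg2b and Ighg2c and the light chain genes Igkc, Iglc2 and Iglc3, 8 of 34579 loci in the tables. They were chosen by name, with their levels in these groups already known, and where a name stood in several rows the row with the highest mean level over the 6 groups was used. Their difference in level between vectors is therefore a description. The mice had received intraspinal rAAV on both sides, after a laminectomy, and at least 3 weeks later an injection of complete Freund's adjuvant (CFA), an inflammatory agent, or of saline into the hindpaw, 24 h before collection. The rAAV carried LacZ, a bacterial enzyme and the control here, or the normal form of HDAC4 (HDAC4 wt), a histone deacetylase that shuttles between nucleus and cytosol, or HDAC4 3SA, a mutant with 3 altered phosphorylation sites that stays in the nucleus. All 6 groups thus carried a viral vector and had undergone spinal surgery, and no uninjected mice were analysed here. Each group held 3 mice, but the tables give 1 FPKM per group (a level per exon length and per number of mapped fragments), so no SD could be computed and no test across mice was run here; the authors' own test results were not used.

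An antibody consists of paired heavy and light chains, and the constant region of the heavy chain sets its class. Ighm encodes the µ chain of IgM, the first class a B cell makes, and class switching replaces it by a γ chain (Ighg3 for IgG3, Ighg2b for IgG2b, Ighg2c for IgG2c in C57BL/6 mice) or by the α chain of IgA (Igha). Light chains are either κ (Igkc) or λ (Iglc1, Iglc2, Iglc3), and most mouse antibodies carry κ. Plasma cells, the end stage of the B cell lineage, secrete antibody and hold very large amounts of these transcripts, whereas neurons and glia do not form functional antibody genes.

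Because the members are similar in sequence, the first 50 bases of each constant region are shown, as an RNAseq read of this study has that length. The sequences are those of the GENCODE transcripts on GRCm38, with the start of the constant region from RefSeq. Among the 4 γ genes, capitals mark the 16 positions at which not all 4 carry the same base, and Ighg1, which is no member, is given for comparison.
Ighg3, chr12:113361183-113361232, minus strand: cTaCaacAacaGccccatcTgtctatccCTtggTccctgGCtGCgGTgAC
Ighg2b, chr12:113307884-113307933, minus strand: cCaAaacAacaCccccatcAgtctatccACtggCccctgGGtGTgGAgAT
Ighg2c, chr12:113288883-113288932, minus strand: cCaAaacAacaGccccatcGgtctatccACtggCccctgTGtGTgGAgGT
Ighg1, chr12:113330474-113330523, minus strand: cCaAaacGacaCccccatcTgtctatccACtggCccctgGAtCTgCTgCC
Among the 3 λ genes capitals mark the 11 positions that differ, and Iglc1, again no member, is given for comparison.
Iglc2, chr16:19198803-19198852, minus strand: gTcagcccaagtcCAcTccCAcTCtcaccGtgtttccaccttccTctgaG
Iglc3, chr16:19065632-19065681, minus strand: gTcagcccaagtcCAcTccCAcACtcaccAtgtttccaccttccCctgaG
Iglc1, chr16:19062022-19062071, minus strand: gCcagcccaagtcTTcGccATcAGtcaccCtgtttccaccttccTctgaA
Ighm, Igha and Igkc have no close relative among the members and are printed in lower case throughout.
Ighm, chr12:113422681-113422730, minus strand: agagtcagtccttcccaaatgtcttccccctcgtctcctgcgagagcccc
Igha, chr12:113260187-113260236, minus strand: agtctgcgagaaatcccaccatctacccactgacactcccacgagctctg
Igkc, chr6:70726435-70726484, plus strand: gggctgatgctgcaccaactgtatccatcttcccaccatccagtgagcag

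Over the constant regions of RefSeq, Iglc2 and Iglc3 were the most alike of the light chain genes, with 96.5% identity (306 of 317 bases), while Iglc1 shared 73.5% with Iglc2 and 74.5% with Iglc3. Ighg2b and Ighg2c were identical at 86.2% of aligned positions of their shortest transcripts, and Ighg3 and Ighg2b at 73.9%. Reads of 50 bases can nevertheless separate most of these genes. Of all 50-base windows in the transcripts of Ighm, Igha and Igkc, 0 were found in a transcript of another gene. The share of windows found elsewhere was 1.58% for Ighg3, 4.15% for Ighg2b, 5.49% for Ighg2c and 7.65% for Iglc2. It was 22.3% for Iglc3, the largest share of the 8, with 43 windows shared with Iglc2 and 47 with 2010309G21Rik. How the authors' programs divided such reads between genes was not tested.

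The rows of the tables did not match the annotated genes exactly. The heavy chain rows lay on chromosome 12, at 113418500 to 113430565 for Ighm, 113359559 to 113363377 for Ighg3, 113306280 to 113312509 for Ighg2b, 113287047 to 113294472 for Ighg2c and 113254910 to 113261294 for Igha (GRCm38). The Igkc row lay on chromosome 6 at 70718763 to 70729890, and those of Iglc2 and Iglc3 on chromosome 16 at 19198215 to 19200345 and 19065230 to 19067204. The Ighm row began 7835 bases upstream of the gene and held the 4 joining segments Ighj1 to Ighj4, and the Igkc row began 7672 bases upstream and held Igkj1 to Igkj5. The Ighg2b and Ighg2c rows reached 4576 and 5540 bases upstream of their genes. The Ighg3, Ighg2b and Ighg2c rows held 43.1%, 41.6% and 83.8% of the annotated exon bases and left out exons at the 3′ end, and the Igha row held 97.0%. The exon lengths by which the authors divided were not used here, so levels of different genes are compared here per length as deposited. A second row named Ighm at the same place had a mean of 4.49% of the one used.

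The tissue was spinal cord by its markers: Snap25, a synaptic protein of neurons, had 1227 and 1135 FPKM in LacZ saline and CFA and between 646 and 861 in the HDAC4 vector groups, and Gfap, an astrocyte filament protein, had 389 and 415 FPKM in LacZ and between 805 and 1094 in the others. Markers of the tissue's own cells thus also differed between the vectors, and their part in the members' levels was not tested. Hdac4 had 7.41 and 7.72 FPKM in LacZ groups and between 8.81 and 10.8 FPKM in the groups with an HDAC4 vector. The vectors were normalized in separate runs, and levels across vectors are set side by side only as a description; among loci with at least 5 FPKM, the median log2 ratio between any 2 of the compared groups lay between -0.0070 and 0.014. The vector, the mice and the normalization run cannot be told apart. In whole tissue, fewer cells of a type and less RNA per cell cannot be told apart either.

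In LacZ-expressing mice 7 of the 8 genes were under 1 FPKM, Ighm being the exception, and all 8 were higher in each of the 4 groups with an HDAC4 vector than in both LacZ groups, an order that 31.2% of all loci reaching 1 FPKM in a group also had (21.9% had the opposite one). Igha, the α chain, had 0.0513 FPKM in LacZ saline and 0.240 FPKM in LacZ CFA, against 269 in HDAC4 wt saline, 435 in HDAC4 wt CFA, 120 in HDAC4 3SA saline and 90.9 in HDAC4 3SA CFA. It was the most abundant heavy chain in 3 of the 4 HDAC4 vector groups. Ighm, the µ chain, had 5.22 FPKM in LacZ saline and 5.26 in LacZ CFA, 77.0 and 64.5 in HDAC4 wt saline and CFA, and 35.7 and 103 in HDAC4 3SA saline and CFA. It was the only member above 1 FPKM in LacZ mice and, per FPKM as deposited, the most abundant heavy chain in the HDAC4 3SA CFA group, a lead that passed to Igha when FPKM was weighted by exon length.

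Ighg3, the γ3 chain, had 0.160 and 0.237 FPKM in LacZ saline and CFA, 29.2 and 161 in HDAC4 wt saline and CFA, and 45.3 and 15.8 in HDAC4 3SA saline and CFA. Like Igha, it was highest in HDAC4 wt CFA and, among the HDAC4 vector groups, lowest in HDAC4 3SA CFA, the group in which Ighm was highest. Ighg2b, the γ2b chain, had 0.0164 and 0.00938 FPKM in LacZ saline and CFA, 1.40 and 1.38 in HDAC4 wt saline and CFA, and 1.38 and 2.21 in HDAC4 3SA saline and CFA. Ighg2c, the γ2c chain, had 0.0105 and 0.00563 FPKM in LacZ saline and CFA, 1.49 and 1.60 in HDAC4 wt, and 1.30 and 1.92 in HDAC4 3SA. These γ2 genes were low everywhere and varied little among the 4 HDAC4 vector groups, unlike Ighg3.

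Igkc, the κ constant region, was the most abundant of the 8 in each HDAC4 vector group. It had 0.117 and 0.268 FPKM in LacZ saline and CFA, 419 and 446 in HDAC4 wt saline and CFA, and 283 and 362 in HDAC4 3SA saline and CFA. Iglc2, a λ constant region, had 0.129 and 0.341 FPKM in LacZ, 118 and 22.9 in HDAC4 wt and 14.8 and 47.0 in HDAC4 3SA (saline and CFA). Among the HDAC4 vector groups Igkc stayed within a narrow range, while Iglc2 was far higher in HDAC4 wt saline than in the others. Iglc3, the λ gene that shares most windows, had 0.0111 and 0.0744 FPKM in LacZ, 3.20 and 2.87 in HDAC4 wt, and 3.07 and 2.28 in HDAC4 3SA (saline and CFA). With 1 value per group and no spread, neighbours in these orders could not be shown to differ.

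**Figure D1:**
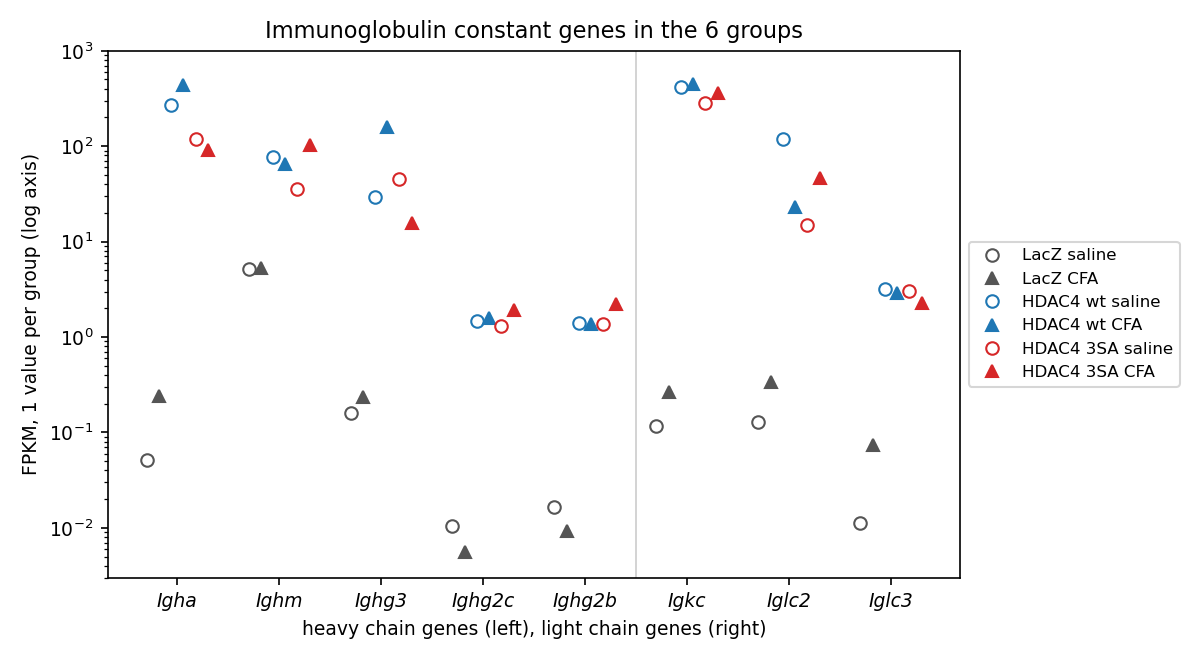
FPKM of the 8 immunoglobulin constant genes on a log axis, 1 point per group; open circles are saline and filled triangles CFA groups, grey LacZ, blue HDAC4 wt and red HDAC4 3SA. Grey points lie below the blue and red points of the same gene, and Ighm is the only gene whose grey points (5.22 and 5.26 FPKM) exceed 1 FPKM.

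Of the other immunoglobulin constant genes, 4 had a row in the tables, and only Iglc1 reached 1 FPKM. Iglc1, a further λ constant region, had 0.0224 and 0.108 FPKM in LacZ, 44.3 and 34.2 in HDAC4 wt, and 19.0 and 215 in HDAC4 3SA (saline and CFA). Ighd, the δ chain that naive B cells carry beside the µ chain, lay between 0.260 and 0.710 FPKM, with its highest level in LacZ CFA. Ighg1, the γ1 chain, was listed at 0 in both LacZ groups and lay between 0.280 and 0.943 FPKM in the others. Ighe, the ε chain, was listed at 0 in 3 groups and reached 0.253 FPKM at most.

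The isotype mix of the heavy chains differed between the groups. Each share is the percentage of a gene in the summed FPKM of the 5 heavy chain members. Ighm made up 95.6% in LacZ saline and 91.5% in LacZ CFA, where the sums were 5.46 and 5.75 FPKM. In HDAC4 wt saline, with a sum of 378 FPKM, Igha made up 71.1%, Ighm 20.4% and Ighg3 7.73%. In HDAC4 wt CFA, with a sum of 663 FPKM, Igha made up 65.6%, Ighg3 24.2% and Ighm 9.72%.

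HDAC4 3SA saline, with a sum of 204 FPKM, had 59.0% Igha, 22.2% Ighg3 and 17.5% Ighm. HDAC4 3SA CFA, with a sum of 214 FPKM, had 48.3% Ighm, 42.4% Igha and 7.35% Ighg3. It was the only HDAC4 vector group in which Ighm led per FPKM. Ighg2b and Ighg2c made up 1.03% and 0.898% there and less in the other groups. With FPKM multiplied by the annotated exon length within the row, which approximates the number of fragments, Igha led with 79.0% in HDAC4 wt CFA and 72.3% in HDAC4 3SA saline, and Ighg3 made up 12.2% and 11.4%. In HDAC4 3SA CFA this weighting turned the lead, with 52.0% Igha and 43.2% Ighm.

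The light chain mix was led by κ wherever levels were high. Igkc made up 77.6% of the 3 light chain members in HDAC4 wt saline, 94.5% in HDAC4 wt CFA, 94.1% in HDAC4 3SA saline and 88.0% in HDAC4 3SA CFA. In LacZ saline and CFA, where the summed light chain level was 0.258 and 0.683 FPKM, its share was 45.5% and 39.3%. Iglc2 took most of the rest, with 21.9% in HDAC4 wt saline and 11.4% in HDAC4 3SA CFA, and Iglc3 stayed at or below 1.02% in the HDAC4 vector groups. With Iglc1 in the denominator the κ share of HDAC4 3SA CFA was 57.8%, as Iglc1 made up 34.4% of it, and those of HDAC4 wt saline, HDAC4 wt CFA and HDAC4 3SA saline were 71.7%, 88.1% and 88.5%.

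Summed light over summed heavy chain FPKM of the members was 0.0472 and 0.119 in LacZ saline and CFA, 1.43 and 0.712 in HDAC4 wt saline and CFA, and 1.47 and 1.92 in HDAC4 3SA saline and CFA. This ratio was chosen after the values were seen. In LacZ mice the heavy chain sum, nearly all Ighm, thus had little light chain beside it, whereas light and heavy chains were of the same order in the other groups.

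**Figure D2:**
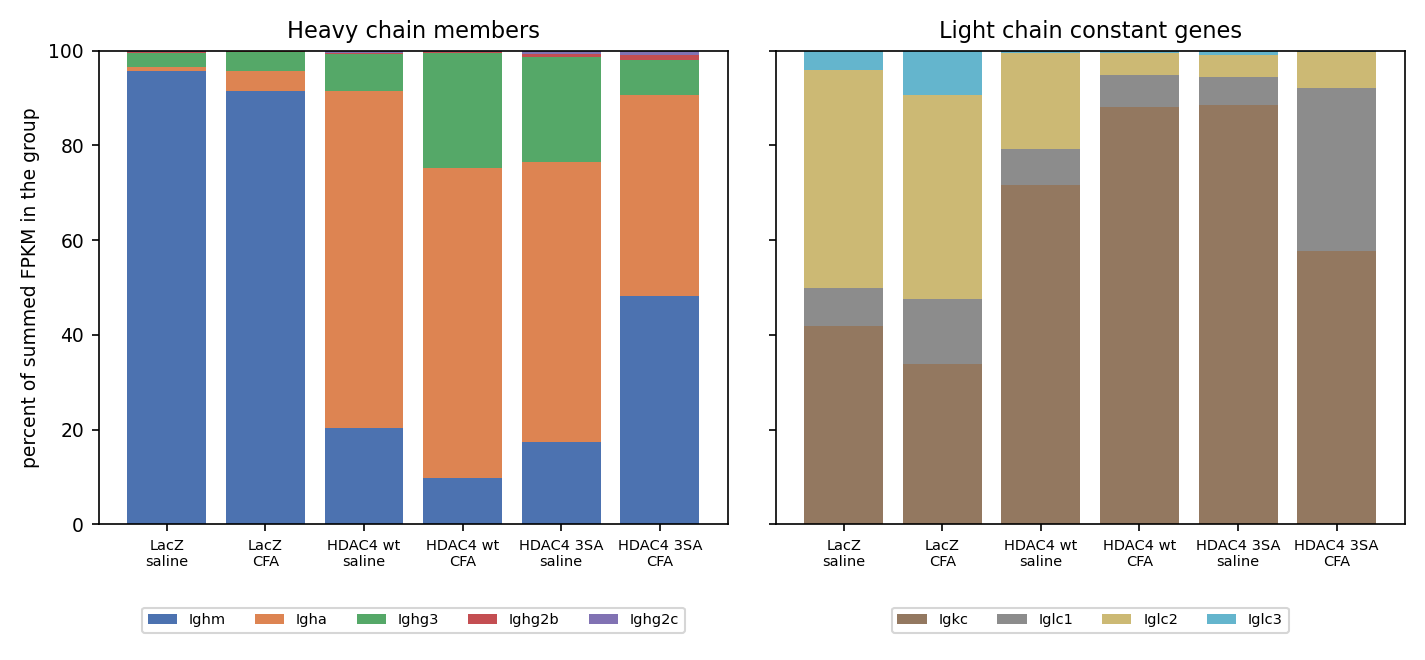
Stacked bars of the percentage of summed FPKM in each of the 6 groups for the 5 heavy chain members (left) and for the light chain constant genes Igkc, Iglc1, Iglc2 and Iglc3 (right). Ighm fills 95.6% and 91.5% of the LacZ heavy chain bars, Igha leads in 3 of the 4 HDAC4 vector groups, and Iglc1 takes 34.4% of the light chain bar of HDAC4 3SA CFA.

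The comparison of CFA with saline within each vector asked which genes respond to inflammation of the hindpaw. A locus was called when it reached 1 FPKM in at least 1 of the groups compared and the ratio, with 0.1 FPKM added to both values, was 2-fold or more; no test stands behind a call. In LacZ-expressing mice only Ighm reached 1 FPKM, and it was not called, with a log2 ratio of 0.01. Over all loci, 1.30% were called higher and 1.28% lower. Igha, at 0.0513 and 0.240 FPKM, had a log2 ratio of 1.17 but stayed under the minimum level.

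In HDAC4 wt-expressing mice all 8 reached 1 FPKM; 1 was called higher and 1 lower, against 2.99% and 1.88% of all loci. Ighg3 was 5.49-fold higher after CFA (log2 ratio 2.46) and Iglc2 was lower (log2 ratio -2.36). The log2 ratios of the others were 0.69 for Igha, -0.26 for Ighm, 0.10 for Ighg2c, 0.09 for Igkc, -0.02 for Ighg2b and -0.15 for Iglc3. The median over the members was 0.04 and over all loci 0.01.

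In HDAC4 3SA-expressing mice all 8 reached 1 FPKM; 2 were called higher and 1 lower, against 4.08% and 1.61% of all loci. Iglc2 was 3.16-fold higher after CFA (log2 ratio 1.66), Ighm 2.89-fold higher (1.53) and Ighg3 lower (-1.52). The log2 ratios of the others were 0.64 for Ighg2b, 0.53 for Ighg2c, 0.35 for Igkc, -0.40 for Igha and -0.41 for Iglc3, and the median over the members was 0.44 against 0.01 over all loci. Ighg3 and Iglc2 thus went in opposite directions in the HDAC4 wt and HDAC4 3SA tables, while Igkc was 1.06-fold and 1.28-fold higher after CFA and was not called in either. Immunoglobulin genes made up 1.01% of the loci tested in HDAC4 wt (191) and 0.924% in HDAC4 3SA (173), but most of those with extreme ratios in either direction: 30 of 33 loci that were at least 100-fold higher and 19 of 31 that were at least 100-fold lower in HDAC4 wt, and 28 of 32 and 13 of 15 in HDAC4 3SA. In LacZ, where 6 immunoglobulin loci reached 1 FPKM, they were 0 of 9 and 2 of 4. None of the 8 genes was among these loci. A locus at least 100-fold apart always passes the minimum level through the group where it is high, so nothing is read from these counts. Without values per mouse, it was not tested whether single mice set these ratios.

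**Figure D3:**
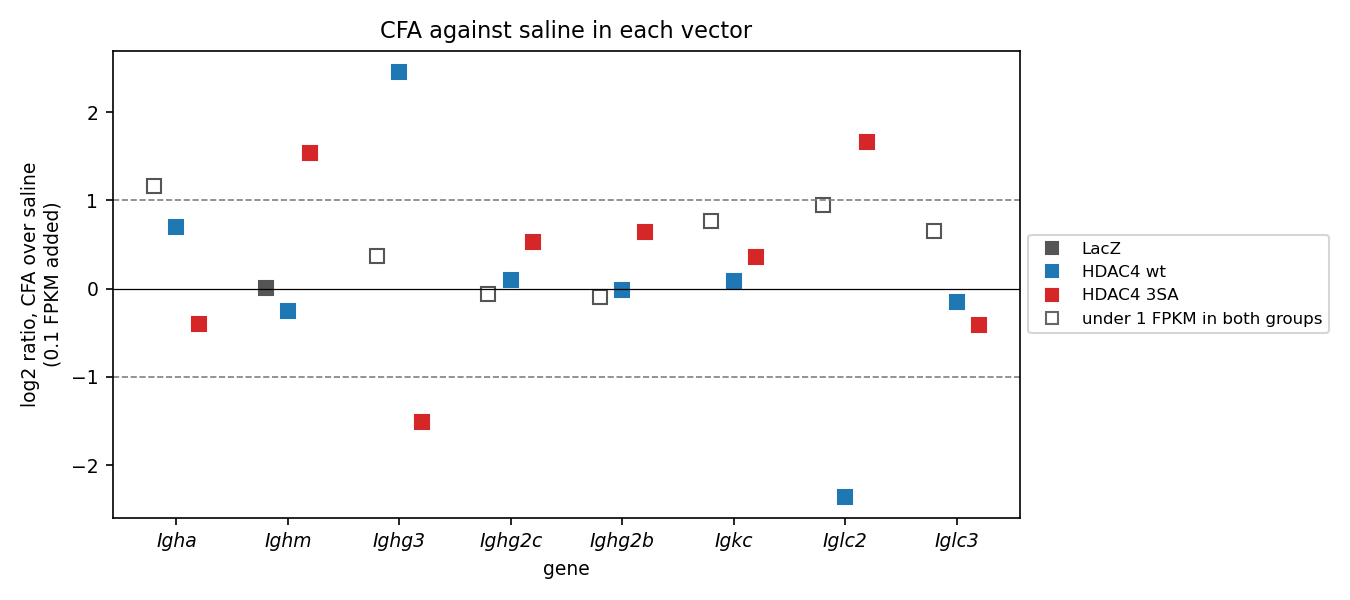
Log2 ratio of CFA over saline FPKM (0.1 FPKM added) for the 8 genes in LacZ (grey), HDAC4 wt (blue) and HDAC4 3SA (red) mice; open squares mark genes under 1 FPKM in both groups and dashed lines 2-fold. Ighg3 lies at 2.46 in HDAC4 wt and -1.52 in HDAC4 3SA, Iglc2 at -2.36 and 1.66, and Igkc close to 0 in both.

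The λ genes were set beside the λ variable segments, which were chosen after their values were seen. Iglv2 lies upstream of Iglc2, and Iglv1 upstream of Iglc3 and Iglc1, and a λ light chain transcript joins a variable to a constant region. Iglv2 had 0.0462 and 0.0772 FPKM in LacZ, 142 and 1.26 in HDAC4 wt and 1.42 and 18.8 in HDAC4 3SA (saline and CFA). Iglv1 had 0.0320 and 0.236 FPKM in LacZ, 121 and 91.7 in HDAC4 wt, and 51.9 and 280 in HDAC4 3SA. Iglc2 and Iglv2 were both highest in HDAC4 wt saline and second in HDAC4 3SA CFA, and Iglc1 and Iglv1 shared the order of all 6 groups. In HDAC4 wt the log2 ratio of CFA over saline was -2.36 for Iglc2 and -6.70 for Iglv2, and in HDAC4 3SA 1.66 and 3.64. Iglv3, which also lies upstream of Iglc2, stayed under 1 FPKM in all groups, with 0.709 and 0.697 FPKM in HDAC4 wt and 0.425 and 0.582 in HDAC4 3SA, and did not follow Iglc2 (log2 ratios -0.02 and 0.38). For Iglc1 and Iglv1 it was -0.37 and -0.41 in HDAC4 wt, and 3.49 and 2.43 in HDAC4 3SA. Iglc3 did not follow Iglv1 in HDAC4 3SA, with a log2 ratio of -0.41.

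**Figure D4:**
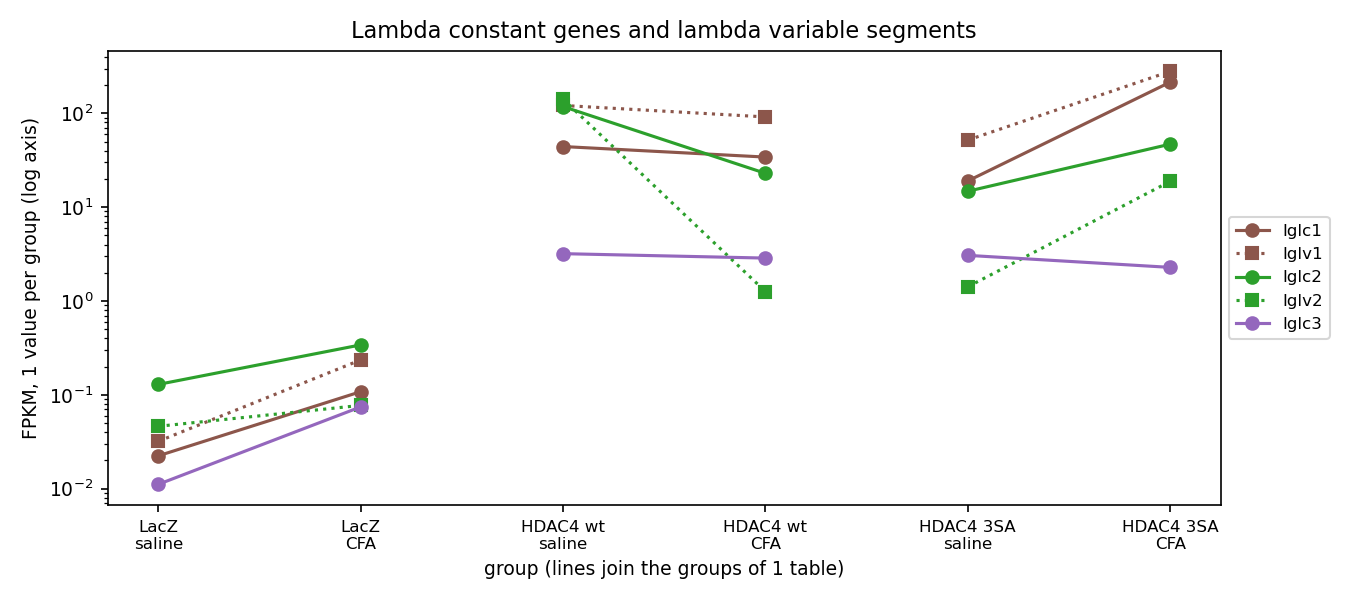
FPKM on a log axis of the λ constant genes Iglc1, Iglc2 and Iglc3 (circles, solid lines) and of the variable segments Iglv1 and Iglv2 (squares, dotted lines) in the 6 groups, with lines joining the groups of 1 table. Iglv2 and Iglc2 fall together from saline to CFA in HDAC4 wt (142 to 1.26 and 118 to 22.9 FPKM) and rise together in HDAC4 3SA, where Iglc1 and Iglv1 reach 215 and 280 FPKM.

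Levels were then set side by side across vectors, as a description. With saline, 8 of 8 members were called higher in HDAC4 wt than in LacZ (8.12% of all loci were) and 0 lower (3.99%), with a median log2 ratio of 5.85 over the members and 0.04 over all loci. In HDAC4 3SA saline 8 of 8 were called higher than in LacZ saline (6.61%) and 0 lower (3.65%), with a median of 5.43. After CFA, 8 of 8 were higher in HDAC4 wt than in LacZ (8.73%) and 0 lower (1.59%), with a median of 4.90, and 8 of 8 were higher in HDAC4 3SA than in LacZ (9.79%) and 0 lower (3.59%), with a median of 4.98. These comparisons share LacZ groups. Since the genes were chosen with these levels known, nothing is read from the counts.

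The size differed between the members. In HDAC4 wt saline over LacZ saline the log2 ratio was 10.91 for Igkc, 10.80 for Igha, 9.01 for Iglc2 and 6.81 for Ighg3. It was 4.89 for Iglc3, 3.86 for Ighm, 3.84 for Ighg2c and 3.69 for Ighg2b. As LacZ values other than that of Ighm were under 0.4 FPKM, the 0.1 FPKM added sets much of these ratios. Loci at least 100-fold higher than in LacZ numbered 129 (0.689% of loci tested) for HDAC4 wt saline, 108 (0.582%) for HDAC4 3SA saline, 131 (0.703%) for HDAC4 wt CFA and 117 (0.621%) for HDAC4 3SA CFA, of which 99, 86, 112 and 99 were immunoglobulin genes, out of 148, 130, 156 and 147 immunoglobulin loci tested. Only 6 immunoglobulin loci reached 1 FPKM in the LacZ table, so nearly all of these passed the minimum through the HDAC4 vector groups.

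Between the HDAC4 vectors, 0 members were called higher (1.94% of all loci) and 3 lower (2.32%) in saline-treated HDAC4 3SA mice than in the matching HDAC4 wt group. These were Iglc2 with a log2 ratio of -2.99, Igha with -1.16 and Ighm with -1.11. After CFA 1 was higher (2.80%) and 2 were lower (2.81%) in HDAC4 3SA: Iglc2 with 1.03, Ighg3 with -3.34 and Igha with -2.26. Under both treatments Igha was thus lower with the HDAC4 3SA vector than with HDAC4 wt, and Igkc was not called in either.

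Genes that take part in making and secreting antibody differed widely in how far apart the vectors were. Of the 11 genes of this list in the tables, 11 were higher in all 4 HDAC4 vector groups than in both LacZ groups (31.2% of all loci). Jchain, the joining chain of IgA and IgM polymers, had 0.205 and 0.289 FPKM in LacZ, 262 and 282 in HDAC4 wt, and 167 and 227 in HDAC4 3SA (saline and CFA). Hsp90b1, a chaperone of the endoplasmic reticulum in all cells, had 129 and 119 FPKM in LacZ and between 154 and 161 in the others. Xbp1, a transcription factor of secretory cells, had 26.8 and 29.7 FPKM in LacZ and between 38.8 and 53.2 in the others. In HDAC4 wt and HDAC4 3SA saline 3 of 11 were called higher than in LacZ saline (8.12% and 6.61% of all loci), and the median log2 ratios were 0.84 and 0.63. Within vectors, CFA against saline, 0 of 8 genes reaching 1 FPKM in LacZ (1.30% of all loci higher and 1.28% lower), 0 of 11 in HDAC4 wt (2.99% and 1.88%) and 0 of 11 in HDAC4 3SA (4.08% and 1.61%) were called.

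Markers of plasma cells and B cells were far less abundant than the main constant region genes in the HDAC4 vector groups. In HDAC4 wt saline 6 of 8 plasma cell markers and 4 of 4 mature B cell markers reaching 1 FPKM were called higher than in LacZ saline (8.12% of all loci), and in HDAC4 3SA saline 4 of 6 and 4 of 4 (6.61%). After CFA 6 of 8 and 4 of 4 were called higher than in LacZ in both HDAC4 wt (8.73%) and HDAC4 3SA (9.79%). Most of the genes called reached 1 FPKM only in the groups where they were high, so these counts are no support. The summed level of 8 plasma cell markers was 13.1 and 13.6 FPKM in LacZ saline and CFA and between 26.2 and 39.2 in the HDAC4 vector groups, with 7 of 8 higher in all 4 of these than in both LacZ groups (31.2% of all loci). Much of these sums was Cd38, also expressed outside the lineage, with between 9.54 and 13.0 FPKM. Pou2af1, a coactivator of antibody gene transcription, had 0.0482 and 0.113 FPKM in LacZ, 4.14 and 4.88 in HDAC4 wt, and 2.73 and 3.53 in HDAC4 3SA (saline and CFA). Sdc1, the plasma cell surface protein CD138, had 1.22 and 1.68 FPKM in LacZ and between 5.06 and 7.90 in the others. Tnfrsf13b, the receptor TACI, had 0.840 and 0.824 FPKM in LacZ and between 3.62 and 5.57 in the others. The summed level of the 11 mature B cell markers in the tables was 2.29 and 4.86 FPKM in LacZ saline and CFA and between 17.2 and 28.6 in the others, and 4 of them reached 1 FPKM. Cd79a, a signalling part of the B cell receptor, had 0.333 and 1.18 FPKM in LacZ and between 6.27 and 10.4 in the others. Cd22 had 0.209 and 0.306 FPKM in LacZ and between 3.43 and 7.71 in the others. For Cd79b these were 0.384 and 0.978, and between 3.11 and 5.01 FPKM. For Fcrla they were 0.0490 and 0.205, and between 1.51 and 3.07 FPKM. Ms4a1 (CD20), which defines mature B cells, stayed under 1 FPKM in all groups, with 0.170 and 0.334 FPKM in LacZ and between 0.550 and 0.810 in the others. So did Pax5, the B lineage transcription factor, with 0.298 FPKM in LacZ saline and 0.420 in HDAC4 wt saline, and Fcer2a (CD23), with 0.390 and 0.320 FPKM.

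Markers of other cell types differed between vectors too. All 7 T cell markers were higher in the 4 HDAC4 vector groups than in both LacZ groups (31.2% of all loci), with summed levels of 2.60 and 3.04 FPKM in LacZ and between 8.03 and 21.6 in the others. Cx3cr1, a microglial receptor, had 9.12 and 9.84 FPKM in LacZ and between 26.3 and 42.1 in the others. The tables held 4 early B cell genes. Of these, 2 were higher in all 4 HDAC4 vector groups than in both LacZ groups (31.2% of all loci). Vpreb3, a partner of the pre-B cell receptor, had 0.375 and 0.429 FPKM in LacZ and between 0.723 and 1.20 in the others. Dntt, which adds bases at antigen receptor joints, had 0.462 and 0.572 FPKM in LacZ and between 0.839 and 1.06 in the others. The sum of the list, mostly Ebf1, lay between 16.6 and 27.8 FPKM, with the lowest value in HDAC4 3SA CFA. Rag1, which cuts the antigen receptor genes, went the other way, with 0.331 and 0.298 FPKM in LacZ and between 0.0728 and 0.191 in the others. Bone marrow myeloid markers were highest in LacZ CFA, with a sum of 23.7 FPKM against 3.33 in LacZ saline and between 4.53 and 13.0 in the others. Sums of red blood cell markers were between 141 and 395 FPKM and of meningeal fibroblast markers between 139 and 199. After CFA, 0 of the 8 plasma cell markers were called in either direction in HDAC4 wt or HDAC4 3SA mice, while 1 of 4 mature B cell markers and 2 of 6 T cell markers that reached 1 FPKM were called higher in HDAC4 3SA (4.08% of all loci) and 0 in HDAC4 wt (2.99%). In LacZ mice the 1 mature B cell marker that reached 1 FPKM, Cd79a, was called higher after CFA (1.30% of all loci; log2 ratio 1.56), and 0 of 3 plasma cell markers and 0 of 1 T cell markers were. The part of any of these cell types in the members' levels was not tested.

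**Figure D5:**
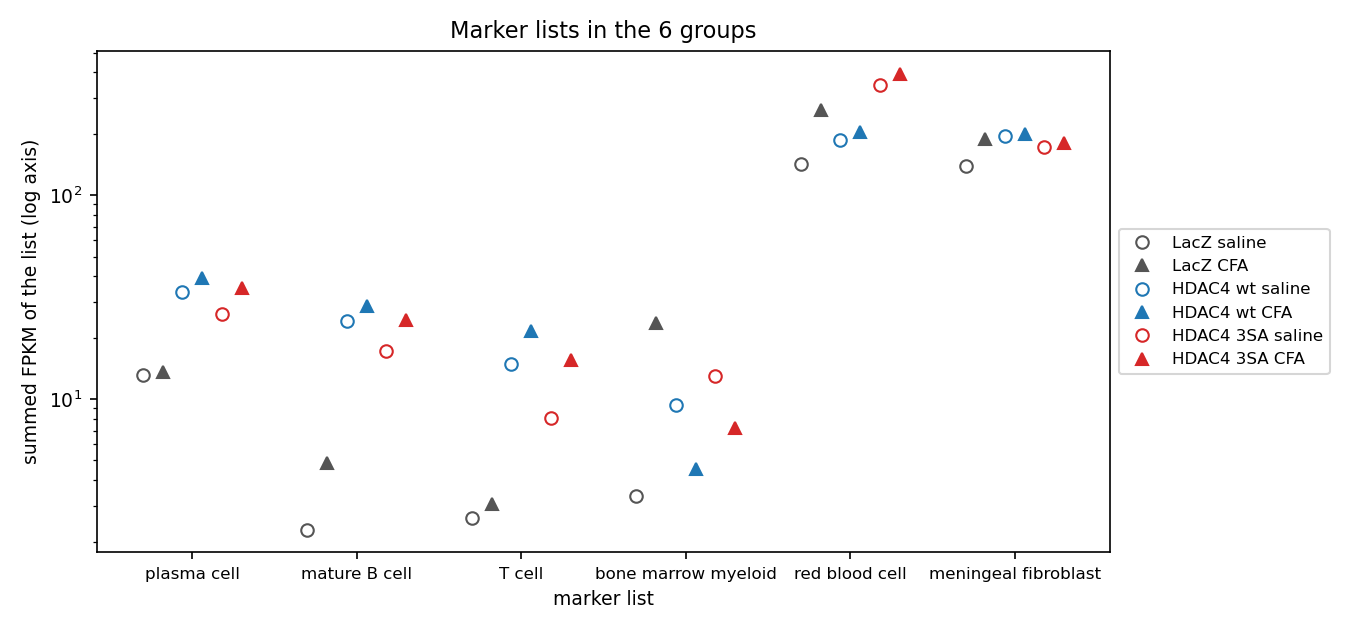
Summed FPKM on a log axis of 6 lists of marker genes in the 6 groups; open circles are saline and filled triangles CFA groups, grey LacZ, blue HDAC4 wt and red HDAC4 3SA. The plasma cell, mature B cell and T cell sums of both LacZ groups lie below those of the 4 HDAC4 vector groups, while the bone marrow myeloid sum is highest in LacZ CFA (23.7 FPKM).

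Of the 4 genes of class switching and somatic mutation in the tables, Ung, Polh and Msh6, which repair DNA in all cells, were called in 0 of the comparisons between vectors. Their levels were between 1.07 and 1.38 FPKM, between 3.28 and 3.94 FPKM and between 6.85 and 8.73 FPKM. Apobec1, an RNA-editing deaminase also found in myeloid cells, had 2.17 and 2.58 FPKM in LacZ and between 13.3 and 28.6 in the others.

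The genes with the most similar pattern were found among 17440 genes outside the immunoglobulin loci, by the root mean square difference of their log2 levels over the 6 groups after subtracting each gene's own mean. For Igkc the nearest was Jchain, at 0.48, followed by Ly6f, F830016B08Rik, Gm20388 and Gm43351, at 0.59 to 0.99, and these 4 were listed at 0 in both LacZ groups. For Ighm the 5 nearest were Cd200r4, at 0.14, and Mpeg1, Pydc4, Plau and Cd68, at 0.20 to 0.22. Mpeg1, a pore-forming protein of macrophages and microglia, had 9.35 and 9.45 FPKM in LacZ, 105 and 131 in HDAC4 wt, and 75.0 and 171 in HDAC4 3SA (saline and CFA). Cd68, a lysosomal protein of the same cells, had 5.37 and 5.99 FPKM in LacZ, 62.7 and 83.9 in HDAC4 wt, and 43.4 and 108 in HDAC4 3SA. Igkc and Ighm thus had different neighbours, and the 6 values behind each pattern are from 3 separately normalized tables.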

How the data were processed

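RNAseq was performed by the authors on dorsal spinal cord of 3 mice per group (poly-A, strand-specific libraries, single-end reads of 50 bases). They mapped reads with TopHat and Bowtie to GRCm38 and estimated levels with Cufflinks and Cuffdiff, 1 run per vector. The deposited FPKM values are 1 estimate per group, so no value per mouse or count was used here. The study's methods give a minimum number of reads, but the depth of single samples and the precision of the values are unknown. Columns with the authors' fold changes, test statistics, p-values and significance calls were not used.

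Members were matched by gene name, and coordinates were made 1-based. The members and gene lists were chosen with earlier results of these data known. Ratios were formed with 0.1 FPKM added and called at 2-fold among loci reaching 1 FPKM in a group (python 3.11.15, pandas 2.3.3). How often such calls are wrong was not tested. For comparisons between vectors, 386 loci whose places differ between tables were left out. Genes were named by rule: the members, other constant genes, list genes with at least 1 FPKM starting with the 3 highest by mean, and the 5 nearest patterns to Igkc and Ighm; further list genes, Hdac4 and the λ variable segments were chosen after their values were seen. Transcripts (GENCODE M21) were searched for shared 50-base windows. Alternatives to the added FPKM, threshold, minimum level, centring, rows and denominators were tried. Single results of some genes in the lists are not reported here.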

Additional observations from a re-analysis of the deposited data

Results flagged for a closer look

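For 2 of the 8 genes the ratio of CFA over saline was past 2-fold with both HDAC4 vectors and in opposite directions. For Ighg3 the log2 ratio was 2.46 with the wild-type and -1.52 with the 3SA vector. For Iglc2 it was -2.36 with the wild-type and 1.66 with the 3SA vector. The difference between the vectors was not tested, as each group has 1 value.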

How the results depend on the processing

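Under the alternatives set for this work 267 values were recomputed. Of these, 245 stayed within 1.5-fold (ratios, counts and percentages of all loci called) or 10 percentage points (shares of the mix), 22 moved further, and 0 called ratios changed sign. Many values could hardly move, as only Ighm had a second row, centring shifted ratios very little and some shares were small. The tally is therefore no measure of how firm the results are. With no minimum level, 1 member instead of 0 was called higher after CFA in LacZ mice. At 1.5-fold, 2 members instead of 1 were called higher in HDAC4 wt, and 3 instead of 2 in HDAC4 3SA. At 4-fold, 0 were called higher and 0 lower in HDAC4 3SA, against 2 and 1. With all heavy chain genes in the denominator the Ighm share of LacZ CFA was 81.4%, and with all light chain genes the Igkc share of HDAC4 3SA CFA was 57.8%. Weighted by exon length, the Igha share was 79.0% in HDAC4 wt CFA and 72.3% in HDAC4 3SA saline, and in HDAC4 3SA CFA Igha (52.0%) passed Ighm (43.2%). Scaling by the median of 9714 loci with 5 FPKM in all groups kept the order of groups for 7 of 8 members; the exception was Ighg2b, whose HDAC4 wt CFA and HDAC4 3SA saline values, both 1.38 FPKM, changed places. No paired analysis was possible because the tables hold 1 value per group, and leaving out single mice was not possible for the same reason. The depth of single samples and the number of fragments behind each value are unknown. Levels under 1 FPKM, as in LacZ mice, thus carry an unknown counting error.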
